A study of Homo sapiens with 16 samples.

Results

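The small RNA silencing machinery was read in LNCaP, a line of human prostate cancer cells that responds to androgen, through 10 genes of the 20502 named entries of the count table. These were chosen by symbol: the 4 Argonautes EIF2C1 to EIF2C4 (now named AGO1 to AGO4), the 3 GW182 genes TNRC6A, TNRC6B and TNRC6C, and DICER1, DGCR8 and XPO5. SLIRP is an RNA-binding coregulator of the androgen receptor, with corepressor properties that depend on context. Cells received 40 nM siRNA for 24 h, either a nonsense control sequence (NS) or a pool directed at SLIRP. They were then kept for 24 h in serum-free medium with vehicle (ethanol) or with dihydrotestosterone (DHT), an androgen, at 1 nM. Each siRNA was thus combined with vehicle (NS-Veh, SLIRP-Veh) and with DHT (NS-1nM DHT, SLIRP-1nM DHT), with 4 libraries in each of the 4 groups. Every library came from cells that had received an siRNA at the same dose, and no untransfected library was analysed here, so the values compare an siRNA pool with 1 control sequence and not transfected with untransfected cells.

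MicroRNAs are cut from their primary transcripts in the nucleus by the Microprocessor, in which DGCR8 guides the nuclease Drosha to the hairpin. XPO5 (exportin 5) carries the hairpin to the cytoplasm, where DICER1 trims it to a short duplex. An Argonaute protein keeps 1 strand of the duplex as a guide, and GW182 proteins bind the Argonaute and recruit the enzymes that shorten the poly(A) tail of the target. A transfected siRNA enters the same pathway at the Argonaute step, and EIF2C2 is the Argonaute known for cutting targets that match the guide fully. The measurements here are of the mRNAs of these genes, not of their proteins, of microRNAs or of silencing activity.

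Since the 10 genes hold families of related sequences, the annotated transcripts were first compared to see whether single 50-base reads can tell the members apart. On hg19 (GENCODE annotation), EIF2C4 (chromosome 1, 36273617 to 36323491), EIF2C1 (36335409 to 36396133) and EIF2C3 (36396319 to 36538101) lie next to each other on the same strand, apart from EIF2C2. TNRC6A is on chromosome 16 (24621530 to 24838953), TNRC6B on chromosome 22 (40440821 to 40731812) and TNRC6C on chromosome 17 (75954785 to 76104903). DICER1 is on chromosome 14 (95552565 to 95624347), DGCR8 on chromosome 22 (20067744 to 20099400) and XPO5 on chromosome 6 (43490072 to 43543775). No 50-base window was shared between any 2 of the 10 transcripts. The longest coding stretch in common was 32 bases, in EIF2C1 and EIF2C3, and the longest among the GW182 genes was 24 bases, in TNRC6A and TNRC6C. The longest exact coding stretches shared by the 3 neighbouring Argonautes are shown, and each lies within 1 coding exon of the first gene named. Matches with mismatches, and runs under 50 bases in untranslated sequence, were not searched, so these stretches do not bound how far a read could match a wrong family member.
EIF2C1 and EIF2C3, exon 12 of EIF2C1, chr1:36372603-36372634, plus strand, hg19: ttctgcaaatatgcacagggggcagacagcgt
EIF2C1 and EIF2C4, exon 14 of EIF2C1, chr1:36379831-36379856, plus strand, hg19: acacaccccccagcaggggatgggaa
EIF2C3 and EIF2C4, exon 5 of EIF2C3, chr1:36439023-36439047, plus strand, hg19: accaccctctgggagggggcaggga

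Reads shared with genes outside the set were a larger source of doubt, since the strand of counting is not given in the sources used here. TNRC6C had 1426 of its 10391 transcript bases in exons of TMC6 on the opposite strand, and 13.3% of its 50-base windows were found in another gene. For DGCR8 the share was 11.4%, from an antisense long noncoding RNA and from the microRNA genes MIR1306 and MIR3618, which lie in the DGCR8 transcript itself. XPO5 overlapped POLR1C by 348 of 5323 bases (3.83% of windows). EIF2C1 and EIF2C3 had shares of 2.54% and 2.35%, and the other members at most 0.346%. The values of TNRC6C and DGCR8 are therefore less certain than those of the other 8 genes.

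For TNRC6B, DICER1 and XPO5, whose level differed between siRNAs, the bases from 250 before to 50 after the RefSeq start site (GRCh38.p14) are shown, because these are called genes with a promoter entry. Entries matched 9 of the 10 members, all but EIF2C2, which was also called. Capitals mark the GC box GGGCGG and the CCAAT box CCAAT, both searched on both strands; the 2 GC boxes of XPO5 overlap.
TNRC6B, chr22:40044584-40044883, plus strand: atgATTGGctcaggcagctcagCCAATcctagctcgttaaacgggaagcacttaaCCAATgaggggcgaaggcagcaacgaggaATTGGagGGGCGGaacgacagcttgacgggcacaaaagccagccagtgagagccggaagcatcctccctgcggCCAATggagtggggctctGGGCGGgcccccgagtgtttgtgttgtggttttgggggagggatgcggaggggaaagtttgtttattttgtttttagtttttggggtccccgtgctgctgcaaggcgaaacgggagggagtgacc
DICER1, chr14:95157480-95157779, minus strand: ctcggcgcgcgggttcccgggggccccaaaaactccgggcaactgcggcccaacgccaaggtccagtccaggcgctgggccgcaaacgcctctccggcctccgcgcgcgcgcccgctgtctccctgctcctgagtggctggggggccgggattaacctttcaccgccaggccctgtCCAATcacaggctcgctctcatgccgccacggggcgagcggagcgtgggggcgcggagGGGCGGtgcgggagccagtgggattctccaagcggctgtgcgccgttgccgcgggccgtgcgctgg
XPO5, chr6:43575989-43576288, minus strand: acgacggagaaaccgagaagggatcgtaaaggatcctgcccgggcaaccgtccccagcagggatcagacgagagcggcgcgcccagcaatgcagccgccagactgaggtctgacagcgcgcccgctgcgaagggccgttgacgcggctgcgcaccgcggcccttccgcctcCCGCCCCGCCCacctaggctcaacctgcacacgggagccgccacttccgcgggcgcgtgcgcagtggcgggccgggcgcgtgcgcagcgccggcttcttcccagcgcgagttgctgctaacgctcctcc
The 3 promoters differed in these letters. TNRC6B had 5 CCAAT matches and 2 GC boxes, DICER1 had 1 of each, and XPO5 had 2 GC boxes and 0 CCAAT matches. Among all 35116 promoters of the same length, 34.6% held CCAAT and 45% held GGGCGG, and 0.359% held as many CCAAT matches as TNRC6B. DGCR8 had 4 CCAAT matches, a number reached by 0.991% of promoters. None of the 9 promoters held TATAAA (11.5% of all promoters), the E2F word TTTGGCGC (0.652%) or the E-box CACGTG (7.26%). A match is a description of the letters only.

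The libraries held between 436353 and 1689708 counts assigned to genes, with NS-Veh replicates 1 and 2 the shallowest. SLIRP, listed as C14orf156, lay between 45.1 and 63.4 CPM (counts relative to the TMM-scaled size of the library) in the 8 NS libraries. In the 8 SLIRP siRNA libraries it lay between 1.41 and 8.05 CPM, so the labels fit the targeted gene. The lowest of these values, 1.41 CPM, was under 3 counts, the least that was read as a level (1.78 to 6.88 CPM across libraries). All 8 luminal prostate markers looked up were detected. With NS their summed level was 3662 to 3982 CPM in vehicle and 3734 to 4345 CPM in DHT. With SLIRP siRNA it was 2723 to 2896 CPM in vehicle and 3018 to 3438 CPM in DHT. Of 10 markers of basal, mesenchymal, endothelial, leukocyte and neuroendocrine cells, KRT5, TP63, PECAM1 and PTPRC were at 0 in all 16 libraries and the list summed to between 17.7 and 34.2 CPM. Its ranges overlapped between siRNAs within each treatment, and those of NS-1nM DHT (19.8 to 21.8 CPM) and SLIRP-Veh (21.9 to 34.2 CPM) did not overlap. The luminal sum was lower with SLIRP siRNA in both treatments and was carried by FOLH1, at 1651 to 2151 CPM in NS and 1014 to 1411 CPM in SLIRP siRNA. The 8 markers did not move together: with SLIRP siRNA 1 was called higher and 4 lower in vehicle, 3 higher and 4 lower in DHT, and 0 higher and 3 lower over the 16 libraries. Their part in the results below was not tested.

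All 10 members passed the filter on low counts in every comparison. Over the 16 libraries, EIF2C2, DICER1 and XPO5 were higher with SLIRP siRNA than with NS and TNRC6B was lower, by edgeR's quasi-likelihood test with 0.01 as the limit of the false discovery rate (FDR, Benjamini-Hochberg adjustment over the 10160 genes tested). The other 6 members did not pass. A large part of the transcriptome differed between siRNAs: 17.8% of all genes tested were called higher and 17.4% lower, and the 8 and 8 libraries did not overlap for 15.2% of genes. Against this background, 3 of the 10 members were called higher and 1 lower, and 3 did not overlap. The median log2 fold change of the 10 was 0.26, beside -0.015 for all genes tested. In bulk samples such as these, less of an mRNA per cell and fewer cells that make it cannot be told apart.

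**Figure D1:**
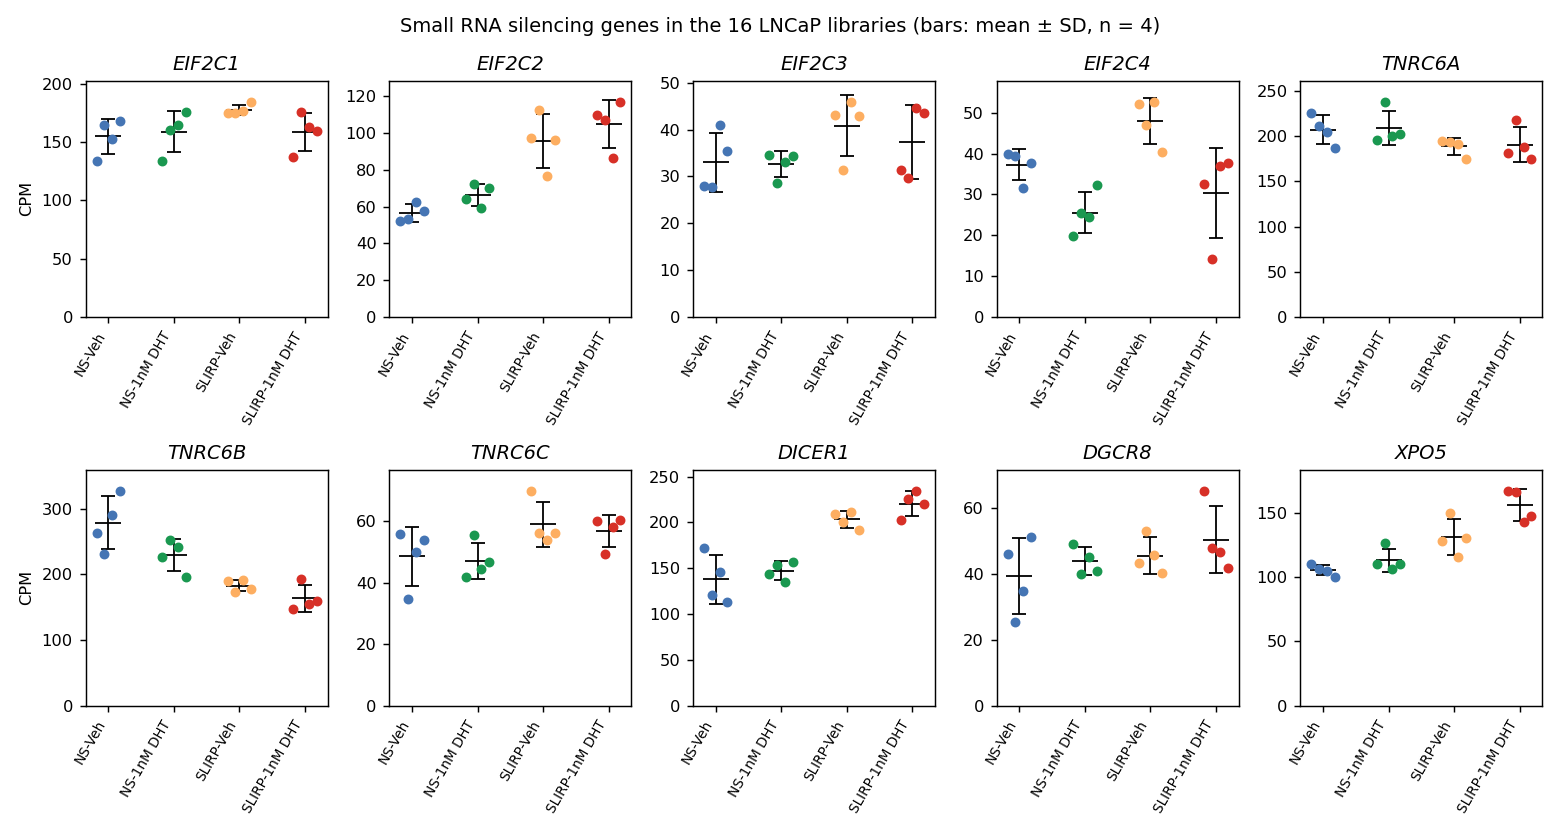
Level of each of the 10 genes in CPM (vertical axes, starting at 0) in the 4 libraries of each of the 4 groups (points), with mean ± SD (bars, n = 4). EIF2C2 and DICER1 sit higher and TNRC6B lower in all 8 SLIRP siRNA libraries than in all 8 NS libraries, while the points of XPO5 overlap in a few libraries and those of DGCR8 and TNRC6A in many.

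EIF2C2 lies on chromosome 8 (141530255 to 141645732 of hg19). Of the Argonautes, which bind the guide strand, EIF2C2 rose and the other 3 did not pass. EIF2C2, the slicing Argonaute, measured 52.0, 53.3, 62.7 and 57.9 CPM in NS-Veh replicates 1 to 4 and 64.0, 72.5, 59.2 and 70.2 CPM in NS-1nM DHT. With SLIRP siRNA it measured 97.1, 113, 76.8 and 96.5 CPM in vehicle and 109.6, 107, 86.5 and 117 CPM in DHT. Every SLIRP siRNA library was above every NS library, and replicate 3 was the lowest of its group in both SLIRP siRNA groups. The log2 difference, SLIRP siRNA over NS, was 0.67 (standard error 0.098, FDR 1.27e-06), a ratio of 1.59. Within vehicle it was 0.72 (standard error 0.14, FDR 9.34e-05) and within DHT 0.65 (standard error 0.13, FDR 0.000101).

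EIF2C1 had the most reads of the 4 Argonautes and did not pass the test. It lay between 134 and 176 CPM in NS (median 163) and between 137 and 184 CPM in SLIRP siRNA (median 175), ranges that overlap almost fully, with a log2 difference of 0.090 (95% interval -0.060 to 0.24, FDR 0.351). In vehicle alone the 4 SLIRP siRNA libraries (175, 175, 176 and 184 CPM) were above the 4 NS libraries (134, 165, 153 and 168 CPM), but the difference of 0.19 (standard error 0.10, FDR 0.169) did not pass. In DHT the difference was -0.0080 (standard error 0.10), and the sign of this value was not stable.

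EIF2C3 and EIF2C4 had the fewest reads among the Argonautes and the widest errors. EIF2C3 ranged from 27.8 to 40.9 CPM in NS and from 29.6 to 45.8 CPM in SLIRP siRNA (log2 fold change 0.24, standard error 0.13, FDR 0.123). With NS, EIF2C4 measured 39.98, 39.4, 31.7 and 37.8 CPM in vehicle and 19.9, 25.5, 24.4 and 32.2 CPM in DHT. With SLIRP siRNA it measured 52.1, 47.0, 52.5 and 40.3 CPM in vehicle and 32.6, 14.1, 36.9 and 37.8 CPM in DHT. Its lowest value, 14.1 CPM, rested on 10 counts in SLIRP-1nM DHT replicate 2. The log2 fold change for SLIRP siRNA was 0.39 (standard error 0.17, FDR 0.0669) and became 0.49 (FDR 0.00806) without that library, the only 1 of the 16 libraries whose removal brought a call. Whether EIF2C4 passed thus depended on 1 library, and no difference between siRNAs was detectable in EIF2C3 at this depth.

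Among the GW182 genes, TNRC6B fell while its 2 relatives did not pass. TNRC6B measured 264, 232, 291 and 327 CPM in NS-Veh and 227, 252, 242 and 197 CPM in NS-1nM DHT. With SLIRP siRNA it measured 189, 174, 191 and 177 CPM in vehicle and 147, 193, 154 and 159 CPM in DHT. All 8 SLIRP siRNA libraries were below all 8 NS libraries, though NS-1nM DHT replicate 4 (197 CPM) and SLIRP-1nM DHT replicate 2 (193 CPM) nearly met. The log2 difference, SLIRP siRNA over NS, was -0.56 (standard error 0.089, FDR 5.15e-06), a ratio of 0.677. It was -0.64 (standard error 0.10, FDR 5.90e-06) in vehicle and -0.49 (standard error 0.10, FDR 0.000253) in DHT.

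TNRC6A lay between 187 and 238 CPM in NS and between 174 and 219 CPM in SLIRP siRNA, with a log2 difference of -0.14 (standard error 0.070, FDR 0.107). TNRC6C had a value in the other direction, 0.27 (standard error 0.11, FDR 0.0362), from 34.8 to 56.0 CPM in NS (median 48.5) and from 49.4 to 69.9 CPM in SLIRP siRNA (median 57.3). This value passed an FDR of 0.05 but not 0.01. TMC6, with which TNRC6C shares the bases described above, had a log2 fold change of -0.70 (standard error 0.13, FDR 5.36e-05), opposite in sign to TNRC6C.

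Of the 3 genes that make and export microRNA precursors, DICER1 had the lowest FDR of the 10 members. It measured 172, 121, 146 and 113 CPM in NS-Veh and 144, 153.5, 135 and 157 CPM in NS-1nM DHT. With SLIRP siRNA it measured 209, 200.5, 211.5 and 192 CPM in vehicle and 202, 226, 234 and 219.7 CPM in DHT. The groups did not overlap, and the spread was widest in NS-Veh, where replicate 1 was the highest and replicate 4 the lowest. The log2 difference, SLIRP siRNA over NS, was 0.57 (standard error 0.078, FDR 4.47e-07), a ratio of 1.48, and it was 0.58 in vehicle (standard error 0.11, FDR 5.33e-05) and 0.58 in DHT (standard error 0.10, FDR 1.67e-05).

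XPO5 measured 110.0, 107, 105 and 100.4 CPM in NS-Veh and 110.1, 127, 106 and 110.5 CPM in NS-1nM DHT. With SLIRP siRNA it measured 129, 150.4, 116 and 131 CPM in vehicle and 167, 166, 143 and 148 CPM in DHT. Over all libraries the ranges overlapped, because SLIRP-Veh replicate 3 (116 CPM) was below NS-1nM DHT replicate 2 (127 CPM), but within each treatment they did not. The log2 difference, SLIRP siRNA over NS, was 0.38 (standard error 0.083, FDR 0.000366). Within DHT it was 0.45 (standard error 0.10, FDR 0.000685), and within vehicle 0.32 (standard error 0.11, FDR 0.0251), which did not pass. POLR1C, which overlaps XPO5, had a log2 fold change of -0.026 (FDR 0.947).

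DGCR8 had too wide a spread to show a difference of this size. It ranged from 25.5 CPM, on 11 counts, to 51.4 CPM in NS and from 40.3 to 65.2 CPM in SLIRP siRNA. The log2 difference, SLIRP siRNA over NS, was 0.15, with a 95% interval from -0.097 to 0.40 (FDR 0.342) that takes in both no change and the value found for XPO5.

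By treatment, the comparison in vehicle called 2 members higher and 1 lower, where 11.8% of the 10677 genes tested were called higher and 9.84% lower. In vehicle 6 members did not overlap between siRNAs (EIF2C1, EIF2C2, EIF2C4, TNRC6B, DICER1 and XPO5), where 29.3% of all genes did not. The comparison in DHT called 3 members higher and 1 lower, where 12.8% of genes were called higher and 11.6% lower. In DHT 4 members did not overlap (EIF2C2, TNRC6B, DICER1 and XPO5), where 32.2% of all genes did not. The group means of these 2 comparisons share no library, but their errors rest on the same estimate of the spread from all 16 libraries. The comparison over 16 libraries holds both. Without the 2 shallowest libraries the log2 fold changes over the remaining libraries were 0.63 for EIF2C2, 0.58 for DICER1, 0.38 for XPO5 and -0.57 for TNRC6B, and all 4 still passed.

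**Figure D2:**
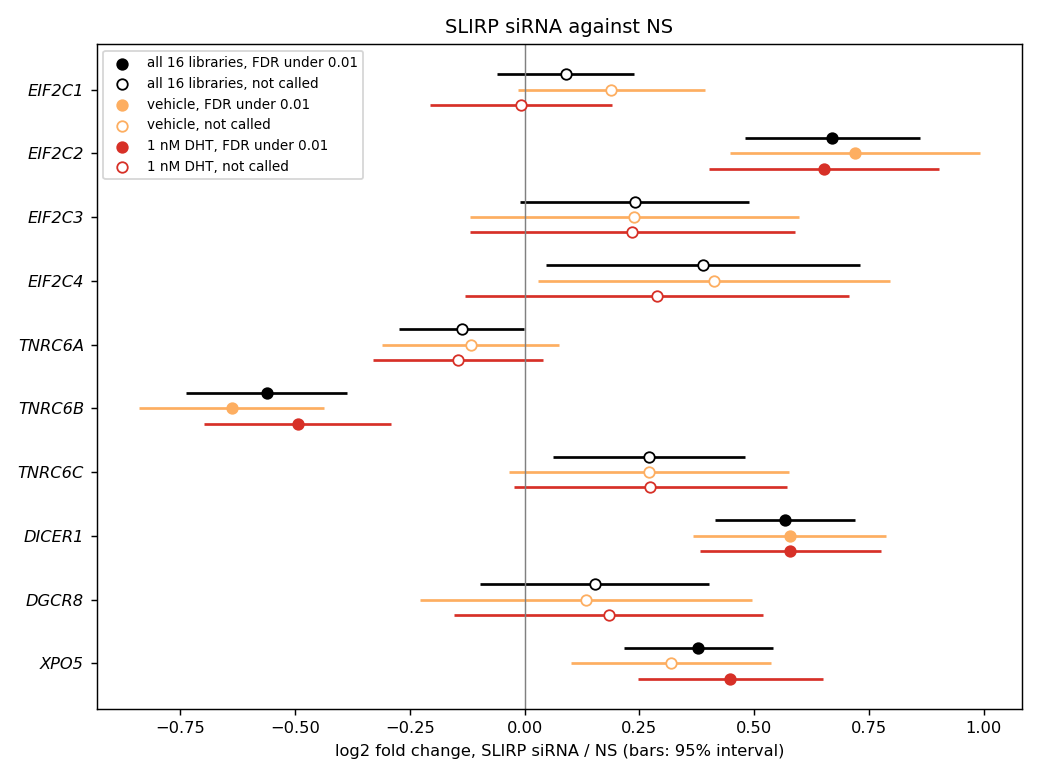
Log2 fold change of each gene, SLIRP siRNA over NS, with 95% intervals (bars), over all 16 libraries (black), in vehicle (orange) and in 1 nM DHT (red); filled points have an FDR under 0.01. EIF2C2 (0.67), DICER1 (0.57) and TNRC6B (-0.56) keep their side in all 3 comparisons, and XPO5 is filled over all libraries and in DHT only.

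The make-up of each family was read as the share of the family's reads taken by each gene in a library (reads, not per length). EIF2C2 took 20.1% ± 1.33 (SD, n = 4) of Argonaute reads in NS-Veh and 26.4% ± 3.65 in SLIRP-Veh. In DHT it took 23.5% ± 2.12 with NS and 31.7% ± 3.93 with SLIRP siRNA. The ranges did not overlap within a treatment: the highest NS-Veh share was 21.7% and the lowest SLIRP-Veh share 21.8%, and in DHT the 2 values were 25.3% and 26.1%. The share of EIF2C1 was 54.9% ± 2.41 in NS-Veh and 49.1% ± 1.53 in SLIRP-Veh. That of EIF2C3 stayed between 8.55% and 14.2% in all libraries.

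The summed Argonaute level was 254 to 299 CPM in NS-Veh and 352 to 368 CPM in SLIRP-Veh, and 253 to 313 CPM in NS-1nM DHT and 311 to 357 CPM in SLIRP-1nM DHT. The summed GW182 level went the other way, from 478 to 568 CPM in NS-Veh and 446 to 545 CPM in NS-1nM DHT to 408 to 455 CPM in SLIRP-Veh and 389 to 461 CPM in SLIRP-1nM DHT. Both sums were separated between siRNAs in vehicle and overlapped in DHT. TNRC6B held the largest share of GW182 reads in NS-Veh, 51.9% ± 4.39, and 42.5% ± 1.38 in SLIRP-Veh, 1.36 ± 0.293 and 0.970 ± 0.0533 reads for each TNRC6A read. TNRC6C took 9.05% ± 1.26 in NS-Veh and 13.7% ± 1.26 in SLIRP-Veh, with the overlap with TMC6 as a limit. There were 0.346 to 0.799 DICER1 reads for each TNRC6B read in the 8 NS libraries and 1.08 to 1.52 in the 8 SLIRP siRNA libraries, ranges that did not overlap. These shares and ratios are computed from the same reads as the fold changes and are given as a description.

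**Figure D3:**
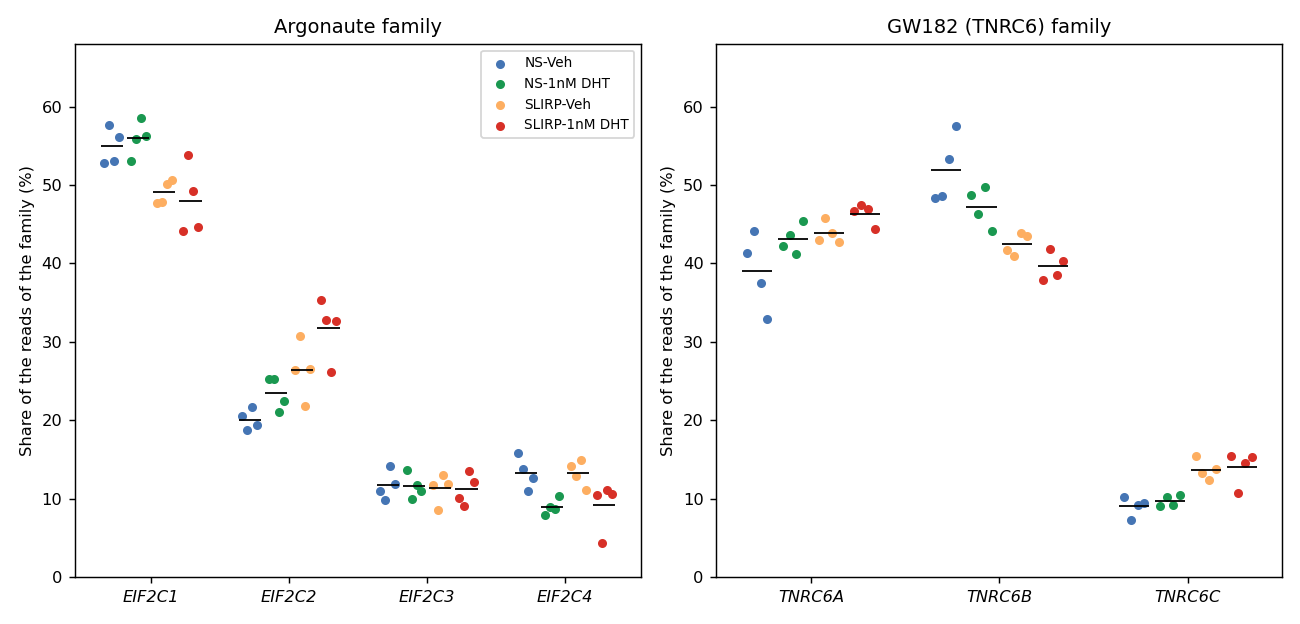
Share of the reads of the Argonaute family (left) and the GW182 family (right) taken by each gene, in percent, in each library (points, coloured by group) with the group mean (line). The mean EIF2C2 share is 20.1% in NS-Veh and 26.4% in SLIRP-Veh, and the mean TNRC6B share is 51.9% and 42.5%.

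Levels can be set against each other between genes only per length. Per kilobase of the annotated main transcript, the order in NS-Veh was TNRC6A (24.4 ± 1.88 CPM per kb, SD, n = 4), XPO5 (19.8 ± 0.745), TNRC6B (15.2 ± 2.21), DICER1 (13.3 ± 2.56), EIF2C1 (11.3 ± 1.12), DGCR8 (8.76 ± 2.56), EIF2C4 (5.12 ± 0.523), TNRC6C (4.69 ± 0.921), EIF2C2 (3.87 ± 0.333) and EIF2C3 (1.68 ± 0.322). In that order TNRC6B, DICER1, EIF2C1 and DGCR8 each overlapped with its neighbour, as did EIF2C4, TNRC6C and EIF2C2, and the other neighbours were separated. In SLIRP-1nM DHT the first 3 were XPO5 (29.3 ± 2.34), TNRC6A (22.5 ± 2.26) and DICER1 (21.2 ± 1.30), TNRC6B was the sixth (8.95 ± 1.11) and EIF2C2 the seventh (7.19 ± 0.889). The order depended on the length used, because the Argonaute transcripts have long untranslated ends: per kilobase of coding sequence EIF2C1 was the highest in NS-Veh (60.3 ± 5.97 CPM per kb) and TNRC6C the lowest (8.38 ± 1.65), and EIF2C2 (21.9 ± 1.89) overlapped with DICER1 (23.9 ± 4.62).

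DHT at 1 nM moved no member past the threshold. The NS-Veh libraries enter both this comparison and that of the siRNAs in vehicle. With NS, 0 members were called by edgeR, where 0.849% of the 10360 genes tested were called higher and 0.463% lower. An unadjusted p under 0.05 was reached by 2 of the 10 members and by 1479 of the 10360 genes. The 2 members were TNRC6B, with a log2 difference of -0.33 (standard error 0.094, FDR 0.0502), and EIF2C4, with -0.48 (standard error 0.19, FDR 0.217). For TNRC6B, NS-Veh replicate 2 (232 CPM) lay within the range of the 4 DHT libraries (197 to 252 CPM). For EIF2C4, NS-Veh replicate 3 (31.7 CPM) was below NS-1nM DHT replicate 4 (32.2 CPM) and the other libraries were separated.

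With SLIRP siRNA, 0 members were called for DHT against vehicle, where 0.637% of genes were called higher and 0.534% lower. An unadjusted p under 0.05 was reached by 2 of the 10 members and by 1662 of the 10677 genes tested. Of all calls in that comparison 54.4% were higher, and 41.3% under upper-quartile scaling. EIF2C4 had a log2 fold change of -0.60 (standard error 0.20, FDR 0.0888), and its 4 DHT libraries (14.1 to 37.8 CPM) were below the 4 vehicle libraries (40.3 to 52.5 CPM). The share of all genes whose groups did not overlap was not computed for DHT against vehicle. XPO5 had 0.25 (standard error 0.10, FDR 0.222). EIF2C4 was thus the member with the lowest value for DHT under both siRNAs, without passing the FDR under either. The group means behind these values come from separate libraries, but the error with SLIRP siRNA draws on the spread of all 16 libraries. DICER1 had close values under both siRNAs, 0.11 (standard error 0.11) with NS and 0.12 (standard error 0.099) with SLIRP siRNA.

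The difference in DHT response between siRNAs was tested as an interaction over all 16 libraries. edgeR called 0 of 10677 genes (0%), with 388 at an unadjusted p under 0.05, and 0 of the 10 members were among those. The interaction values of the members ran from -0.20 for EIF2C1 to 0.14 for TNRC6B, both with an FDR of 1.00. The 95% interval of the interaction was -0.29 to 0.30 for DICER1 and -0.69 to 0.45 for EIF2C4. These intervals give the uncertainty of the estimates and are not limits of detection, so the lack of a call does not show equal responses.

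**Figure D4:**
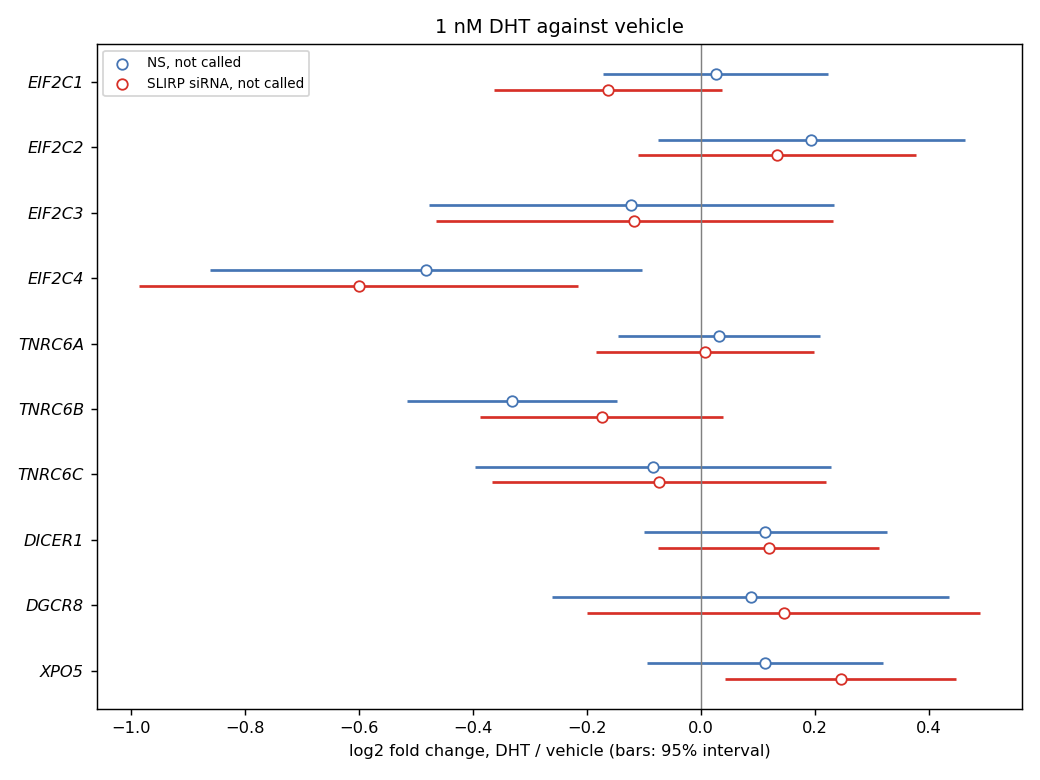
Log2 fold change of each gene, 1 nM DHT over vehicle, with 95% intervals (bars), with NS (blue) and with SLIRP siRNA (red); open points did not reach an FDR of 0.01. EIF2C4 lies lowest under both siRNAs (-0.48 and -0.60), followed by TNRC6B (-0.33 and -0.17).

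The rest of the pathway was read from lists of 75 genes by role, of which 72 were tested for SLIRP siRNA against NS. Of these, 23 were called higher and 7 lower, 41.7% in all, beside 40% of the 10 members. Of all 10160 genes tested, 3577 were called in either direction, 17.8% higher and 17.4% lower. The median log2 fold change of the 72 was 0.17. In vehicle 20 were higher and 7 lower, where 11.8% of all genes tested were called higher and 9.84% lower. In DHT the counts were 22 and 7, where the shares of all genes were 12.8% and 11.6%. The counts of each role below stand beside the same shares of all genes. Since the lists were written with earlier results known, these counts are descriptions.

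The Microprocessor list, which holds Drosha and its helpers, had 5 of 8 genes higher and 1 lower, and the counts were the same within vehicle and within DHT. SFRS1 (now SRSF1), a splicing factor that also promotes primary microRNA cutting, went from 393 ± 14.7 CPM (SD, n = 8) in NS to 603 ± 36.99 CPM in SLIRP siRNA (log2 fold change 0.61, standard error 0.057, FDR 3.28e-10). HNRNPA1, an RNA-binding protein that assists the cutting of some primary microRNAs, rose by 0.49 on the log2 scale (standard error 0.070, FDR 7.89e-07). RNASEN, the symbol under which Drosha is listed, rose by 0.41 (standard error 0.079, FDR 9.02e-05), and the helicase DDX17 was the gene called lower (-0.29, FDR 6.02e-05). DDX5, another helicase of the list, was called higher (0.38, standard error 0.061, FDR 6.40e-06). RNASEN, DDX17 and DDX5 were named after their values were seen. Drosha mRNA was thus called higher while DGCR8, its partner, was not, and that difference between the 2 genes was not tested.

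Partners of Dicer and of RISC loading (RISC is the complex of an Argonaute and its guide strand) had the fewest calls over the 16 libraries, with 1 of 14 tested genes higher and 1 lower. SND1, a nuclease found in RISC, fell from 341 ± 19.2 to 262 ± 24.3 CPM (SD, n = 8) (log2 fold change -0.39, standard error 0.066, FDR 1.47e-05). TSN, a subunit of the nuclease that removes the passenger strand, was the gene called higher (0.52, FDR 0.000131) and was named after its value was seen. TARBP2 and PRKRA, the double-stranded RNA-binding partners of DICER1, had values of 0.27 (FDR 0.240) and -0.28 (FDR 0.0681) and were not called, also named after their values were seen.

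The chaperones that hold an Argonaute open for loading had 8 of 13 genes higher and 1 lower, with a median log2 fold change of 0.40. The 2 cytosolic HSP90 genes went opposite ways: HSP90AB1 rose from 1855 ± 88.4 to 2582 ± 284 CPM (0.47, standard error 0.060, FDR 1.24e-07), and HSP90AA1 fell from 2335 ± 227 to 1604 ± 164 CPM (-0.54, standard error 0.065, FDR 4.46e-08). These chaperones serve many other clients, steroid receptors included. FKBP5, an HSP90 cochaperone and a known androgen target, was the gene called among the 72 for DHT against vehicle with NS. It was higher by 0.56 (standard error 0.12, FDR 0.00510). With SLIRP siRNA 0 of the 72 were called for DHT. Among all genes tested, 0.849% were called higher and 0.463% lower with NS, and 0.637% and 0.534% with SLIRP siRNA. For the difference in DHT response between siRNAs 0 of the 72 were called, so these counts do not show that the response differed.

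Downstream of GW182, 5 of 16 deadenylation genes were higher and 1 lower (37.5% called), and 25% of the decapping and decay genes below were called. Of all genes tested 17.8% were called higher and 17.4% lower, so neither list held clearly more calls than the background. PABPC4 rose by 0.67 (standard error 0.075, FDR 1.32e-08) and PABPC1 by 0.34 (standard error 0.049, FDR 9.46e-07) on the log2 scale; both encode proteins that coat the poly(A) tail. PAN3, a subunit of the deadenylase that GW182 proteins bind, was the gene called lower (-0.73, FDR 4.52e-06) and was named after its value was seen. CNOT1, the scaffold of the other deadenylase that GW182 proteins bind, had -0.10 (FDR 0.101) and was named in the same way. For decapping and 5′ to 3′ decay, 3 of 12 genes were higher and 0 lower, among them the exonuclease XRN1 (0.33, standard error 0.078, FDR 0.000800) and the P-body protein LSM14A (0.27, standard error 0.071, FDR 0.00212).

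Of 9 tested genes that tail or degrade small RNAs, 1 was higher and 3 were lower, among them the lowest and the highest value of the 72 genes. XRN2, an exonuclease, fell from 203 ± 34.2 to 102 ± 12.6 CPM (SD, n = 8) (log2 fold change -0.95, standard error 0.094, FDR 1.11e-09). PAPD4, which adds adenosine to microRNA ends, fell by 1.20 on the log2 scale (FDR 1.98e-08), ZC3H12A, which cuts precursor hairpins, fell by 0.87 (FDR 2.97e-05), and ERI1, an exonuclease, rose by 0.80 (FDR 1.79e-06). The last 3 had mean counts of under 100 and were named after their values were seen. XRN2 and ZC3H12A also act on mRNAs and other RNAs.

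**Figure D5:**
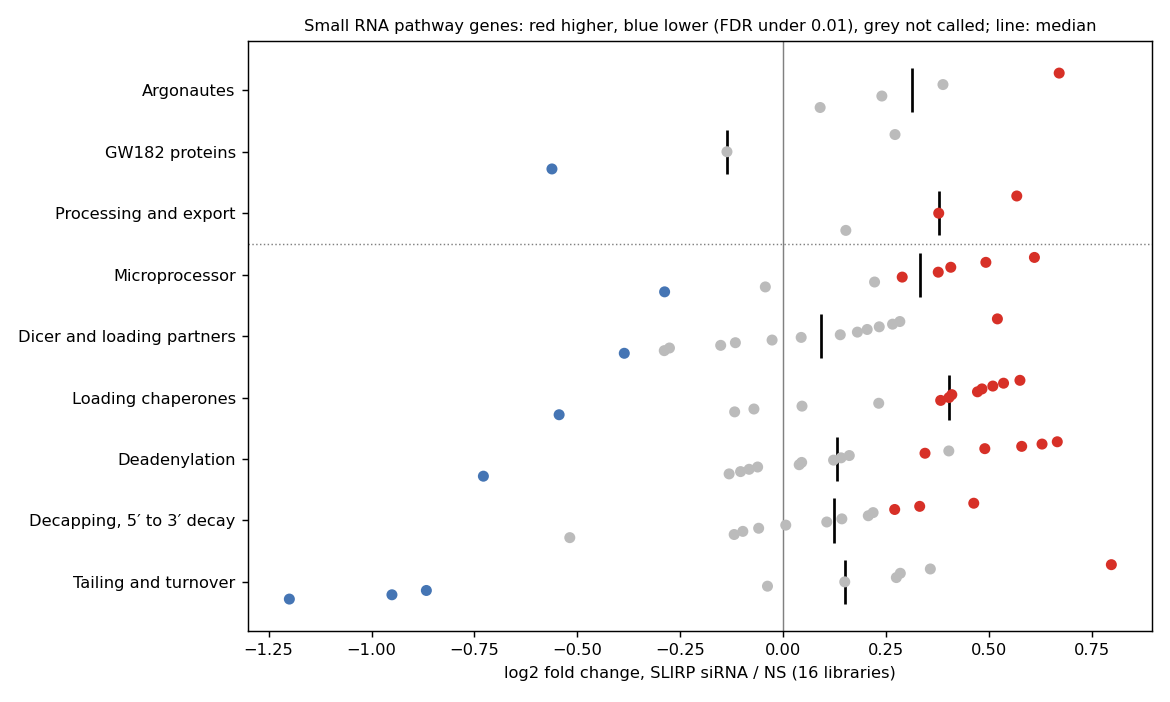
Log2 fold change, SLIRP siRNA over NS over 16 libraries, of the 10 members (above the dotted line) and of the tested genes of 6 other roles, coloured by call at an FDR of 0.01 (red higher, blue lower, grey not called), with the median of each role (line). Microprocessor genes and chaperones lie mostly to the right of 0, and the 3 leftmost points belong to tailing and turnover genes.

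A pair of neighbouring lists bounded the pathway. The 4 PIWI genes, the germline branch of the Argonaute family, had at most 1 count in any library and were not tested. Of 5 tested genes that edit or sense double-stranded RNA, 0 were higher and 2 were lower (40% called). In either direction 3577 of all 10160 genes tested were called, 17.8% higher and 17.4% lower. ADAR, which edits adenosine in double-stranded RNA, fell from 556 ± 27.6 to 415 ± 28.4 CPM (SD, n = 8) (log2 fold change -0.43, standard error 0.058, FDR 4.77e-07). DDX58 (RIG-I), a sensor of viral and other double-stranded RNA and an interferon-stimulated gene, fell by 1.42 (FDR 3.22e-09) and was named after its value was seen.

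DICER1, the member with the lowest FDR, was last compared with all 2696 tested genes whose mean count reached 100, by the Euclidean distance over the 4 group means of log2 CPM after the mean of each gene was subtracted. The centred DICER1 levels with NS were -0.34 in vehicle and -0.23 in DHT, and with SLIRP siRNA 0.23 in vehicle and 0.34 in DHT. The nearest genes were PPM1G (distance 0.0147), TMEM30A (0.0381) and EIF3M (0.0390). With 4 group means the likeness rests on few points.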

How the data were processed

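RNA from 16 LNCaP libraries was sequenced as single 50-base reads. Per the labels, CASAVA, RSEM and hg19 were used; versions and annotation are not given in the sources used here. The authors deposited whole-number estimated counts from RSEM for 20531 entries, and the 29 without a symbol (0.0305% to 0.0420% of counts) were left out. They also deposited a normalized score, in which each library was scaled to its upper quartile, used here only as an alternative.

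Groups followed the sample titles. The tests used edgeR 4.0.16 in R 4.3.3: TMM, filterByExpr, quasi-likelihood test, Benjamini-Hochberg FDR of 0.01 over all genes tested. The siRNAs were compared over 16 libraries without covariate, DHT and vehicle within the 8 NS libraries, and the rest as contrasts of a 4-group model. The standard error is the log2 fold change divided by the root of the F statistic, and 95% intervals take the normal quantile of that error. CPM use TMM library sizes, and log2 CPM a prior count of 2. The members and gene lists were chosen with earlier results of these data known. All 10 members were named. From every other role at most 2 called genes of mean count 100 or more, those with the lowest FDR, were named, with C14orf156 as a check and the 3 genes most like the member with the lowest FDR; exceptions are stated.

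The study describes 2 biological replicates from each of 2 experiments, without saying which numbers belong to which. Replicates differed beyond sampling noise (chi-square per degree of freedom 1.21 to 2.37 over genes with at least 20 summed counts), and p-values measure the spread between these libraries. Depth was 436353 to 1689708 counts, so 3 counts, the least that was read as a level, are 1.78 to 6.88 CPM; such limits cover counting error only. The models were tested on simulated counts, with 200 genes of at least 20 CPM changed by 1 on the log2 scale. This change is larger than any value found for a member. Of the 200, 84% to 98.5% were recovered in the siRNA and DHT comparisons and 65% in the interaction, so recovery of smaller changes was not tested. Coordinates and transcript lengths come from GENCODE on hg19 and promoters from RefSeq on GRCh38.p14. Alternatives were DESeq2 1.42.0, upper-quartile and RLE scaling, no filter, a minimum of 10 counts in each library, treatment as covariate, the replicate number as a block, only the groups compared, the 4-group model for NS, an FDR of 0.05, limma 3.58.1 on the normalized score with pseudocounts of 1 and 0.1, each library left out and, chosen after seeing the data, the 2 shallowest libraries left out. Figures used matplotlib 3.10.9 in Python 3.11.15.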

Additional observations from a re-analysis of the deposited data

Results flagged for a closer look

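In 3 of the 40 groups of 4 libraries (10 genes in 4 groups), 1 library lay far from the other 3 by Dixon's 95% criterion, where chance gives about 2. EIF2C1 in SLIRP-Veh replicate 4 was 184 CPM, beside 175 to 176 CPM in the other 3 libraries of that group. TNRC6A in NS-1nM DHT replicate 2 was 238 CPM, beside 196 to 203 CPM. TNRC6C in SLIRP-Veh replicate 1 was 69.9 CPM, beside 53.9 to 56.4 CPM. None of these 3 genes was called in any comparison at an FDR of 0.01.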

How the results depend on the processing

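EIF2C2, DICER1 and TNRC6B kept their direction and passed in all 27 alternatives run over the 16 libraries, in vehicle and in DHT, and XPO5 did so over the 16 libraries and in DHT. In vehicle XPO5 passed only at an FDR of 0.05 (0.32, FDR 0.0251), as did TNRC6C over the 16 libraries (0.27, FDR 0.0362). Over the 16 libraries the values ranged from 0.63 to 0.72 for EIF2C2, 0.53 to 0.60 for DICER1, 0.35 to 0.42 for XPO5 and -0.62 to -0.49 for TNRC6B. For DHT with NS, 1 member was called lower without the filter on low counts, TNRC6B (-0.33, FDR 0.00967, range over 19 alternatives 0.00967 to 0.474); the cause was not tested.

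The values that changed sign belonged to members that were not called. EIF2C1 in DHT (-0.0080) was 0.011 with DESeq2 and with RLE, 0.0012 without a filter, 0.0042 with at least 10 counts in every library, 0.00062 with the groups compared alone, 0.0077 without the 2 shallowest libraries, and -0.065 to 0.067 with single libraries left out. For DHT with NS, EIF2C3 was 0.011 with limma at either pseudocount and -0.18 to 0.023 with libraries left out, EIF2C1 was -0.0075 without the 2 shallowest libraries and -0.033 to 0.093 with libraries left out, and TNRC6A and DGCR8 were -0.041 to 0.061 and -0.030 to 0.28 with libraries left out. For DHT with SLIRP siRNA, TNRC6A was -0.016 with upper-quartile scaling, -0.027 with limma at either pseudocount and -0.046 to 0.070 with libraries left out, and TNRC6C was -0.11 to 0.069 with libraries left out.

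The replicate number was not taken as a pairing, since in each 2 groups at least 1 of the 4 same-numbered pairs had deviations from the group means that correlated at an r under 0.1 across 6961 genes (mean r 0.0285 to 0.137, own number best in 1 to 3 of 4 cases). There was partial structure: between the NS groups r was 0.159, 0.0504, 0.137 and 0.202, with the own number best in 3 of 4 cases. Within both NS groups replicates 1 and 2, and 3 and 4, were the most alike (chi-square per degree of freedom 1.24 and 1.38 in NS-Veh and 1.22 and 1.30 in NS-1nM DHT, 1.45 to 1.91 for the other pairs). With SLIRP siRNA this held for 3 and 4 in vehicle (1.21) but not for 1 and 2 (1.95), and in DHT for 1 and 2 (1.53) but not for 3 and 4 (1.78). The chi-square grows with depth and was not corrected for it. In SLIRP-1nM DHT replicates 1 and 2 held 774988 and 717238 counts, and replicates 3 and 4 held 1038912 and 1237940. Pairs of unequal depth can therefore not be ranked strictly by this measure. Which numbers share an experiment is not given in the sources used here, and a block on the number also takes up a split of 1 and 2 against 3 and 4. The replicate block changed no call of a member; it moved the calls over all genes for DHT with NS from 136 to 275, and those for SLIRP siRNA from 3577 to 3954. Calls over all genes for DHT with NS were 236 without a filter, 27 and 17 with limma (pseudocounts 1 and 0.1), 279 at an FDR of 0.05, 83 and 87 without NS-Veh replicate 1 or 2 and 69 without both. For DHT with SLIRP siRNA, 125 became 223, 62, 48 and 310 under no filter, the 2 limma fits and an FDR of 0.05, and 73 without SLIRP-Veh replicate 1; the share of calls that were higher, 54.4%, was 41.3% with upper-quartile scaling and 33.9% and 35.4% with limma. The interaction gave 13 genes without a filter and 1 without NS-1nM DHT replicate 2. Depth limits the members with few reads: EIF2C4 rested on 10 counts and DGCR8 on 11 in their lowest libraries.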
